A study of Mus musculus with 12 samples.

Results

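The 40 genes described here make or process ribosomal RNA: they code for RNA polymerase I and its factors, the nucleolar proteins, the small nucleolar ribonucleoproteins (snoRNPs) and the assembly factors of the small and large ribosomal subunits. A member was taken as measured where the platform annotation mapped a probe set to its symbol, or a former name, and to no other gene. This gave 67 probe sets for 38 of the 40 members, out of 12393 genes with such a probe set, and all 38 passed the filter on weak signals. Dkc1 and Mrto4 were not analysed here. The cells were primary mouse embryonic fibroblasts (MEFs) made from embryonic day 13.5 embryos and grown to passage 2, either Rb null, lacking the retinoblastoma gene Rb1, or wildtype. The 4 groups were cisplatin-treated Rb null cells, cisplatin-treated wildtype cells, untreated Rb null cells and untreated wildtype cells, with cisplatin, a platinum drug that crosslinks DNA, given at 16 µM for 24 h. Each group has 3 Affymetrix arrays, and the design names 4 RNA samples, 1 per group, each hybridized 3 times, so the tests measure the spread between hybridizations and hold no spread between cultures or embryos. In RNA from a mixed culture, fewer cells of a type and less RNA per cell cannot be told apart.

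RNA polymerase I transcribes the ribosomal DNA repeats into a single precursor that holds the 18S, 5.8S and 28S rRNAs. Initiation needs UBF (Ubtf), which binds the repeats, and Rrn3 (TIF-IA), which links the polymerase to its promoter. Box C/D and box H/ACA snoRNPs then guide methylation and pseudouridylation of the precursor, while the small subunit processome and the large subunit assembly factors fold and cleave it. Ribosome biogenesis follows cell growth, MYC is a well-known activator of many of these genes, and the retinoblastoma protein is known to bind UBF and to restrain polymerase I.

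Rb1 itself averaged 89.63 ± 14.45 in cisplatin-treated Rb null cells, against 382.9 ± 60.06 in cisplatin-treated wildtype cells, and 93.97 ± 9.995 in untreated Rb null cells, against 459.7 ± 35.38 in untreated wildtype cells (MAS5 signal, an intensity on a linear scale, SD, n = 3 each). The untreated wildtype arrays stood apart in sex-linked transcripts: the mean of Xist was 3442.6 for the Rb null cells given cisplatin, 2379.3 for the wildtype cells given cisplatin and 3139.3 for the untreated Rb null cells, against 132.2 in untreated wildtype cells. The Y-linked Eif2s3y averaged 6.633 for the Rb null cells given cisplatin, 1.267 for the wildtype cells given cisplatin and 1.433 for the untreated Rb null cells, against 478.1 in untreated wildtype cells. The summed signal of 9 proliferation markers was 24337.1 to 25052.8 in cisplatin-treated Rb null arrays, 15115.5 to 15488.0 in cisplatin-treated wildtype arrays, 21208.9 to 21589.3 in untreated Rb null arrays and 6640.5 to 6805.3 in untreated wildtype arrays. Over 17 macrophage markers it was 6342.8 to 6545.0 in cisplatin-treated Rb null, 12582.9 to 13172.0 in cisplatin-treated wildtype, 8594.4 to 9005.0 in untreated Rb null and 6687.7 to 7034.9 in untreated wildtype arrays. Over 10 fibroblast markers it was 51426.3 to 51889.2 in cisplatin-treated Rb null, 62183.5 to 64896.5 in cisplatin-treated wildtype, 71882.6 to 74500.1 in untreated Rb null and 71912.5 to 75882.4 in untreated wildtype arrays. None of these markers had a group mean of 0, and their part in the results below was not tested. Gene by gene, by the calls defined below, 13 of 16 macrophage markers were lower and 0 higher in cisplatin-treated Rb null than in cisplatin-treated wildtype cells. All genes gave 13.3% and 9.67%. With cisplatin 12 were lower and 2 higher in Rb null cells (all genes 20.3% and 16.6%). In wildtype cells 1 was lower and 6 higher (all genes 12.7% and 14.8%). Pairs of arrays correlated at 0.981 to 0.992 within a group and at 0.806 to 0.952 between groups.

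A gene was called where limma's Benjamini-Hochberg adjusted p was under 0.05 and the change was at least 1.5-fold. Differences are given as log2 of the signal with 10.4 added, ± the standard error, and ± after a mean signal is the SD of the 3 arrays. The trimmed mean was equal on all 12 arrays, so each value is relative to the other transcripts on its array.

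The members as a group were highest in cisplatin-treated Rb null cells and lowest in untreated wildtype cells. With each gene set to its mean over the 12 arrays, the median member lay at 0.26 to 0.29 on the log2 scale in the 3 cisplatin-treated Rb null arrays, and at 0.05 to 0.11 in the cisplatin-treated wildtype arrays. It lay at -0.09 to -0.0043 in the untreated Rb null arrays and at -0.30 to -0.22 in the untreated wildtype arrays. The 4 groups did not overlap in this median, while the median of all 7945 genes tested stayed between -0.025 and 0.045 on every array. By group mean, 24 members were highest in cisplatin-treated Rb null cells (as were 30.8% of all genes), 9 in cisplatin-treated wildtype (22.5%), 5 in untreated Rb null (20.5%) and 0 in untreated wildtype cells (26.2%). The lowest mean lay in cisplatin-treated Rb null cells for 5 members (and for 36.0% of all genes), in cisplatin-treated wildtype for 4 (13.3%), in untreated Rb null for 2 (22.7%) and in untreated wildtype cells for 27 (28.0%). Since the untreated wildtype arrays were the ones that stood apart in sex-linked transcripts, the comparisons that use them carry that difference as well. By their sum, the proliferation markers were also highest in cisplatin-treated Rb null and lowest in untreated wildtype arrays. That sum was lower in cisplatin-treated wildtype than in untreated Rb null arrays. Pcna, the brightest marker, averaged 11657.2 in cisplatin-treated Rb null and 7896.9 in untreated Rb null cells. Gene by gene all 9 markers had their lowest mean in untreated wildtype cells, but not all were highest in cisplatin-treated Rb null cells. All 9 were called higher in untreated Rb null than in untreated wildtype cells (all genes 8.07%). With cisplatin 8 of the 9 were called higher in wildtype cells (all genes 14.8%). In Rb null cells 5 of the 9 had a log2 response above 0 and 4 below. Mki67, Top2a and Cdk1 were among those lower with cisplatin there.

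**Figure D1:**
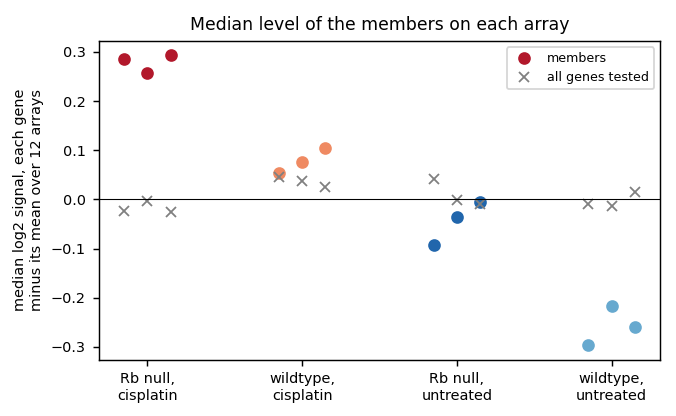
Median log2 signal of the 38 members (dots) and of all 7945 genes tested (crosses) on each array, each gene set to its mean over the 12 arrays; groups run along the horizontal axis. The members' dots lie at 0.26 to 0.29 in cisplatin-treated Rb null arrays and at -0.30 to -0.22 in untreated wildtype arrays, and the crosses stay near 0.

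In untreated cells 5 members were higher in Rb null than in wildtype cells and 0 were lower, that is 13.2% of the members higher, beside 8.07% of all genes called higher and 5.08% called lower. In either direction the share, 13.2% of the members, equalled the 13.2% of all genes. The 5 were Rrp1b, Gar1, Nolc1, Rrs1 and Nop58. At an adjusted p under 0.05 with any fold, 12 members were higher and 0 lower, beside 1486 and 1335 of all 7945 genes (35.5% of all genes passed in either direction). At an unadjusted p under 0.05 the counts were 14 and 1, beside 1815 and 1685 of all 7945 genes. By array, 15 members had every Rb null value above every wildtype value and 1 had every value below, where all genes gave 24.3% above and 23.1% below. The median log2 difference was 0.17 over the members and -0.0093 over all genes, and 33 of 38 members were above 0.

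After cisplatin, 7 members were higher in Rb null than in wildtype cells (Gnl3, Nle1, Tsr1, Gar1, Nop58, Nop56 and Noc4l) and 1 was lower (Polr1b). These are 18.4% and 2.63% of the members, beside 9.67% and 13.3% of all genes (23.0% in either direction). Without the fold minimum 17 members were higher and 5 lower at an adjusted p under 0.05, beside 1822 and 2402 of all 7945 genes (53.2% passed in either direction). By array, 19 members lay wholly above and 6 wholly below in Rb null cells, where all genes gave 26.8% and 34.0%. The median log2 difference was 0.19 over the members and -0.05 over all genes, with 26 of 38 members above 0. Gar1 and Nop58 were the 2 members called higher in both genotype comparisons, which share no arrays. Across the 38 members the 2 genotype differences correlated at r = 0.12, against 0.30 across all genes, a description in which the points of each difference share the same 6 arrays.

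In wildtype cells 6 members were called higher with cisplatin (Polr1e, Polr1c, Gar1, Noc2l, Noc3l and Rrn3) and 0 lower. That is 15.8% of the members higher, beside 14.8% of all genes called higher and 12.7% called lower, so the share of higher calls was near that of all genes (27.5% in either direction). Without the fold minimum 24 members were higher and 1, Nle1, was lower at an adjusted p under 0.05, beside 2545 and 1949 of all 7945 genes (56.6% passed in either direction). At an unadjusted p under 0.05 these counts were 24 and 2, beside 2744 and 2107 of all 7945 genes. The treated arrays lay wholly above the untreated ones for 23 members and wholly below for 1, where all genes gave 34.9% and 27.5%. The median log2 response was 0.38 over the members and 0.06 over all genes. This comparison sets 1 treated against 1 untreated RNA sample and uses the untreated wildtype arrays, which stood apart in sex-linked transcripts. Cisplatin and that difference cannot be told apart here.

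In Rb null cells 10 members were called higher with cisplatin (Gnl3, Polr1e, Gar1, Tsr1, Nip7, Polr1c, Rrn3, Nop10, Noc3l and Noc4l) and 1 lower (Polr1a). These are 26.3% and 2.63% of the members, beside 16.6% and 20.3% of all genes (36.9% in either direction). At an adjusted p under 0.05 with any fold, 22 members were higher and 4 lower, beside 2483 and 2726 of all 7945 genes (65.6% passed in either direction). The treated arrays lay wholly above for 25 and wholly below for 5 (all genes 33.5% and 36.3%). The median log2 response was 0.35 over the members and -0.02 over all genes. Polr1c, Polr1e, Rrn3, Gar1 and Noc3l, 5 of the 10 higher in Rb null cells and 5 of the 6 higher in wildtype cells, were called higher with cisplatin in both genotypes. The arrays are separate, but each response rests on 1 treated and 1 untreated RNA sample. The responses of the 38 members in the 2 genotypes correlated at r = 0.41, against 0.71 across all genes.

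The difference between the 2 responses, Rb null minus wildtype, was called positive for Gnl3, Nle1 and Noc4l and negative for Polr1b, Rrp1b and Polr1a. Each direction holds 7.89% of the members, beside 8.70% and 15.0% of all genes (23.7% in either direction). At an adjusted p under 0.05 with any fold 7 were positive and 6 negative, beside 1205 and 1917 of all 7945 genes (39.3% passed in either direction). The median was -0.04 over the members and -0.07 over all genes.

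**Figure D2:**
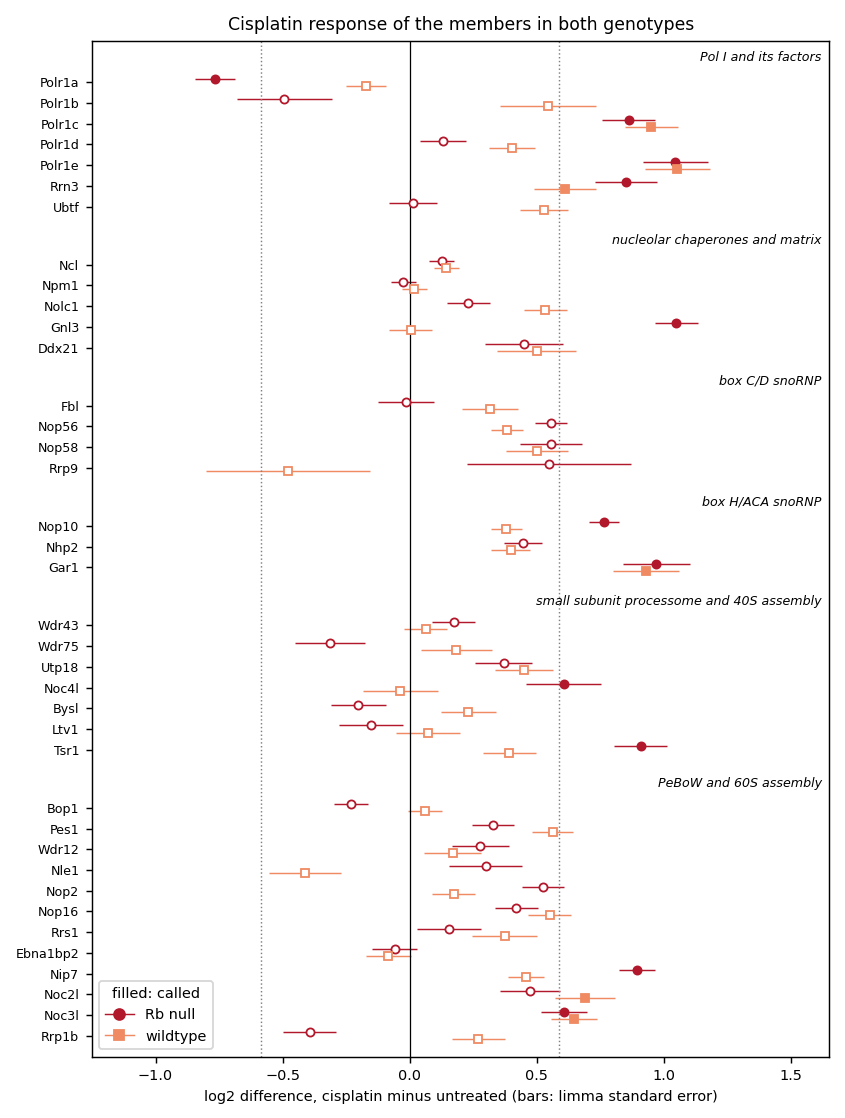
Cisplatin response (log2, treated minus untreated) of each of the 38 members in Rb null cells (circles) and wildtype cells (squares); a filled symbol marks a called change and the dotted lines mark 1.5-fold. Polr1e, Polr1c, Gar1, Rrn3 and Noc3l are filled in both genotypes, and Gnl3 lies at 1.05 in Rb null cells and at 0.0032 in wildtype cells.

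Promoters were searched for the E-box CACGTG, the site that MYC and its partners bind, and for words of the E2F site, since E2F factors are the main partners of the retinoblastoma protein. RefSeq promoters (250 bases before to 50 after the gene start, GRCm38.p6) were at hand for 36 of the 40 members. CACGTG, which reads the same on both strands, was found in 8 of the 36 (22.2%), against 8.09% of 27025 genes. An E2F word (TTTGGCGC, TTTCCCGC, TTTGCCGC or TTTCGCGC, on either strand) was found in 4 of the 36 (11.1%), against 2.6% of all genes. In the 250 bases before the start alone the counts were 3 of 36 for CACGTG (8.33%, against 6.86%) and 4 of 36 for the E2F words (11.1%, against 2.16%). The 5 promoters printed here, with the matches in capitals, belong to called members with a match: Rrn3 with 2 E-boxes, Nle1 with 1, Tsr1 with an E-box and an E2F word, and Nop58 and Nolc1 with an E2F word. They lie at chr16:13780449-13780748 (plus strand), chr11:82908346-82908645 (minus strand), chr11:74897830-74898129 (plus strand), chr1:59684756-59685055 (plus strand) and chr19:46075597-46075896 (plus strand). The E-boxes of Nle1 and Tsr1 lie after the start and the other printed matches before it. An E-box was also found in Ltv1, Nop2, Pes1, Utp18 and Wdr43, and an E2F word in Ncl. None of these members was called by its chosen probe set. No match was found in this window for the called members Gar1, Gnl3, Nip7, Noc2l, Noc3l, Noc4l, Nop10, Nop56, Polr1a, Polr1b, Polr1c, Polr1e and Rrp1b. Rrs1, also called, had no promoter at hand. A match is a description of letters and does not show that a factor binds.
Rrn3: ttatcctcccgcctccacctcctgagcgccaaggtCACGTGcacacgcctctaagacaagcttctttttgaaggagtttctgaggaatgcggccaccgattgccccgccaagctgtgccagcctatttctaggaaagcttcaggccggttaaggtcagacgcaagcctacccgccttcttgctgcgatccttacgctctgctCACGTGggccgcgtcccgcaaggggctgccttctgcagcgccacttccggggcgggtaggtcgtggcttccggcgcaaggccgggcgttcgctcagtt
Nle1: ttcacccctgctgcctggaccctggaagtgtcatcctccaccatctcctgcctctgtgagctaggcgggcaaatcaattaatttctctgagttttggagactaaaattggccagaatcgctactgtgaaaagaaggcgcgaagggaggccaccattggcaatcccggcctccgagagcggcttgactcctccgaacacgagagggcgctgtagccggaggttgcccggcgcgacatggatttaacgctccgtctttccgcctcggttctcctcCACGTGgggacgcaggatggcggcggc
Tsr1: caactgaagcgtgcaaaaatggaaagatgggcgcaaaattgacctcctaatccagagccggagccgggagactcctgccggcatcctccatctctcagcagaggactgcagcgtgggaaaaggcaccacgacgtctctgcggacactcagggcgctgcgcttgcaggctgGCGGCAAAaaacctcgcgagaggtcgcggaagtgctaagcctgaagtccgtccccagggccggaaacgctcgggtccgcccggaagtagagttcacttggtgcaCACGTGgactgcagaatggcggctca
Nop58: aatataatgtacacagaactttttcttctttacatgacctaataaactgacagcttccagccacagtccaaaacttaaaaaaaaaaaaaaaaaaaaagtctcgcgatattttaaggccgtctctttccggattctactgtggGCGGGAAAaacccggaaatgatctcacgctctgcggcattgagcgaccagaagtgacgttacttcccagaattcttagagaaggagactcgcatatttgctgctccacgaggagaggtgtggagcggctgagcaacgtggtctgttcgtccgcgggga
Nolc1: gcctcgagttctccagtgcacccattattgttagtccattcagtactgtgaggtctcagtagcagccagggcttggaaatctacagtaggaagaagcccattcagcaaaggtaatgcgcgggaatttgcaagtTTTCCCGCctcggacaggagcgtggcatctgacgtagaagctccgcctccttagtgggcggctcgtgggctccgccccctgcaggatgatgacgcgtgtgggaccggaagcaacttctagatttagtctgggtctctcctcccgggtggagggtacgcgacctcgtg

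Among the 7 members of the polymerase I machinery, Polr1c, Polr1e and Rrn3 were called higher with cisplatin in both genotypes, while the subunits of the catalytic centre, Polr1a and Polr1b, parted between the genotypes. Polr1e, a subunit particular to polymerase I that acts in initiation, gave signals of 503.5, 399.3 and 427.1 in cisplatin-treated Rb null cells and 323, 331.3 and 387.8 in cisplatin-treated wildtype cells. Without the drug it gave 217.3, 187.6 and 222.9 in Rb null and 150.7, 147.8 and 189.2 in wildtype cells. Treated and untreated arrays did not overlap in either genotype (log2 response 1.04 ± 0.129, adjusted p = 5.37e-06 in Rb null; 1.05 ± 0.129, adjusted p = 7.38e-06 in wildtype). Polr1c, a subunit shared with RNA polymerase III, gave 1638.9, 1346.1 and 1139.3 in cisplatin-treated Rb null and 1217.1, 1277.6 and 1331 in cisplatin-treated wildtype cells. Its untreated signals were 736.2, 780.9 and 715.8 in Rb null and 640.2, 666.8 and 656.9 in wildtype cells (log2 response 0.86 ± 0.104, adjusted p = 4.36e-06 in Rb null; 0.95 ± 0.104, adjusted p = 2.39e-06 in wildtype). Both probe sets of Polr1c and both of Polr1e were called higher in both genotypes.

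Rrn3, the initiation factor, whose promoter holds 2 E-boxes, gave 613.9, 783.3 and 746.5 in cisplatin-treated Rb null and 643, 601.4 and 480 in cisplatin-treated wildtype cells. It gave 373.2, 431.6 and 368.1 in untreated Rb null and 339.3, 387.6 and 386.6 in untreated wildtype cells (log2 response 0.85 ± 0.122, adjusted p = 2.57e-05 in Rb null; 0.61 ± 0.122, adjusted p = 6.89e-04 in wildtype). The wildtype call lies close to 1.5-fold and was lost without untreated wildtype replicate 1 or without cisplatin-treated wildtype replicate a or b, and with a pseudocount of 45.8, with log2 values down to 0.52 over all alternatives.

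Polr1a, the largest subunit, gave 338, 384.2 and 376.7 in cisplatin-treated Rb null cells, against 653.4, 601.8 and 635.5 in untreated Rb null cells, and fell (-0.77 ± 0.0788, adjusted p = 8.16e-07). In wildtype cells it gave 506.4, 513.4 and 477.8 with cisplatin and 561, 563.9 and 564.9 without, a difference that was not called (-0.17 ± 0.0788, adjusted p = 0.0797). All 3 of its probe sets had a negative response in Rb null cells, and 1 of them, the one with the highest signal, was called. The difference between the responses was -0.60 ± 0.111, adjusted p = 8.01e-04, a call lost under quantile normalization, under median centring, with a pseudocount of 45.8, and without untreated Rb null replicate 1, cisplatin-treated Rb null replicate a or cisplatin-treated wildtype replicate b (nearest to 0 at -0.48). Polr1b, the second-largest subunit, gave 187.3, 266.5 and 240.1 in cisplatin-treated Rb null cells, against 298.4, 473 and 471.8 in cisplatin-treated wildtype cells, and was lower there (-0.80 ± 0.188, adjusted p = 0.00268). In untreated cells it gave 310.5, 332.7 and 336.8 in Rb null and 350.9, 264.8 and 223.6 in wildtype cells. Neither response of Polr1b was called alone (-0.49 in Rb null, 0.54 in wildtype), but their difference was (-1.04 ± 0.266, adjusted p = 0.00702).

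Ubtf, whose protein UBF the retinoblastoma protein binds, was not called in any comparison. It gave 1142.7, 1004 and 1029.7 in cisplatin-treated Rb null, 1118.8, 1142.2 and 1062.1 in cisplatin-treated wildtype, 1139.5, 980.1 and 1029.3 in untreated Rb null and 691.5, 733.7 and 884 in untreated wildtype cells. The untreated wildtype arrays were the low ones: the untreated genotype difference was 0.45 ± 0.0947, adjusted p = 0.0021 and the wildtype response 0.53 ± 0.0947, adjusted p = 2.77e-04, both under 1.5-fold. Polr1d, the partner of Polr1c, was not called. It gave 1988.5, 2275.6 and 2125.5 in cisplatin-treated Rb null, 2252.4, 2493 and 2618.7 in cisplatin-treated wildtype, 1691.2, 2099.4 and 2063.2 in untreated Rb null and 1742.5, 1977.8 and 1838.4 in untreated wildtype cells.

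**Figure D3:**
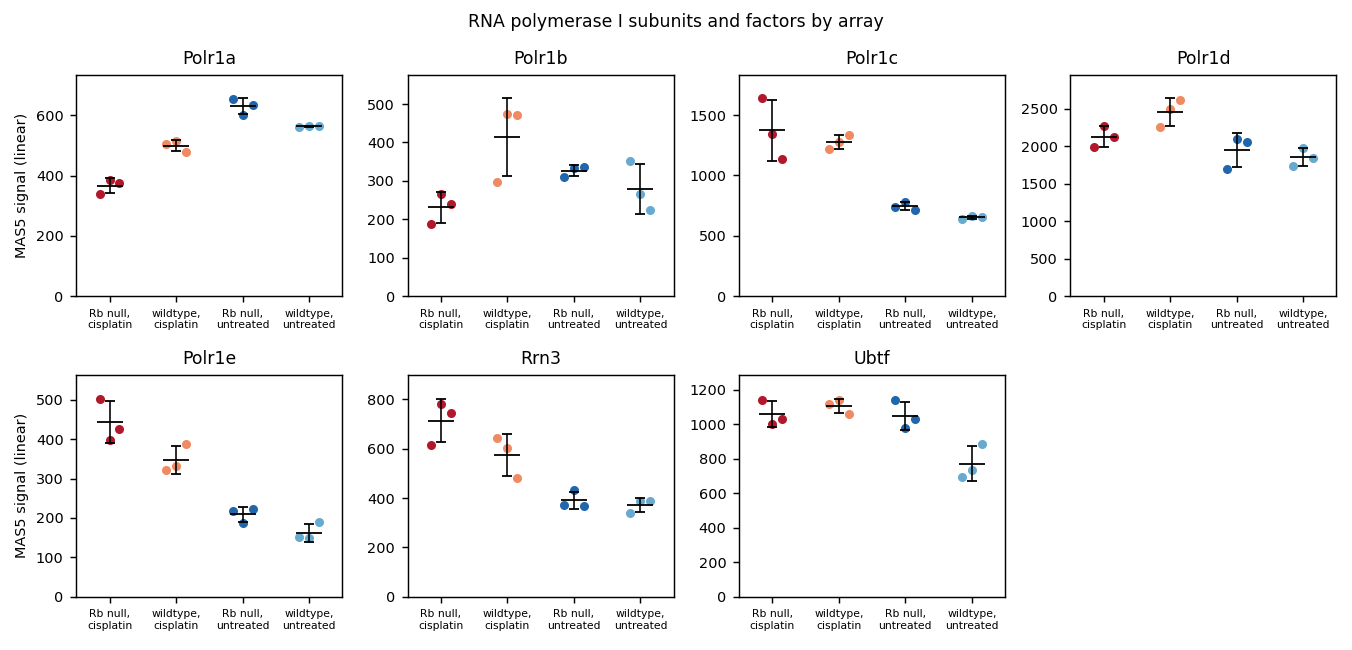
MAS5 signal (linear scale) of the polymerase I members on each array, with 1 panel per gene; points are arrays and bars the mean ± SD of 3. Polr1c and Polr1e are high in both cisplatin-treated groups, Polr1a is low in cisplatin-treated Rb null cells, and Polr1b is low in cisplatin-treated Rb null against cisplatin-treated wildtype cells.

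Of the 5 nucleolar proteins, Gnl3 had the largest genotype difference of any member after cisplatin. Gnl3 codes for nucleostemin, a nucleolar GTP-binding protein of proliferating cells. It gave 3024.4, 2974.5 and 2964.2 in cisplatin-treated Rb null and 1358, 1411.1 and 1160.9 in cisplatin-treated wildtype cells, and 1534.4, 1426.3 and 1362.8 in untreated Rb null and 1307.1, 1195.9 and 1413.8 in untreated wildtype cells. The cisplatin-treated Rb null arrays stood alone and the other 3 groups lay together. The genotype difference after cisplatin was 1.19 ± 0.0834, adjusted p = 5.73e-08, and the response was 1.05 ± 0.0834, adjusted p = 5.39e-08 in Rb null cells and 0.0032 ± 0.0834, adjusted p = 0.978 in wildtype cells. The difference of the responses was 1.04 ± 0.118, adjusted p = 1.13e-05.

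Nolc1 (Nopp140), a chaperone of snoRNPs, gave 1045.5, 1115.7 and 1088.4 in untreated Rb null cells, against 765.1, 687.4 and 637.9 in untreated wildtype cells, and was called higher there (0.63 ± 0.0847, adjusted p = 4.42e-05; the call was lost without untreated wildtype replicate 3, where log2 values went down to 0.57). With cisplatin it averaged 1272.3 ± 70.78 in Rb null and 1011.9 ± 83.84 in wildtype cells (SD, n = 3 each). Of its dimmer probe sets, 1 gave means of 127.4 in cisplatin-treated Rb null, 165.8 in cisplatin-treated wildtype, 147.6 in untreated Rb null and 81.23 in untreated wildtype cells. That probe set was called higher in untreated Rb null than in untreated wildtype cells (0.81) and higher with cisplatin in wildtype cells (0.95). Its difference of responses was called negative (-1.18), unlike that of the chosen probe set. The other dimmer probe set of Nolc1 was not called in any comparison (0.40 between untreated groups). The abundant Ncl (nucleolin) and Npm1 (nucleophosmin), which bind pre-ribosomal RNA and particles, were not called in any comparison by their chosen probe sets. Ncl gave 6243.2, 6230.6 and 6309.2 in cisplatin-treated Rb null, 4971.4, 5107.4 and 5417.8 in cisplatin-treated wildtype, 5685, 5825.1 and 5710.4 in untreated Rb null and 4806.2, 4708.9 and 4510.3 in untreated wildtype cells. Npm1 gave 7530.1, 7392.6 and 7829.7 in cisplatin-treated Rb null, 6329.7, 6738.4 and 6333.1 in cisplatin-treated wildtype, 7504.3, 7824.1 and 7821.9 in untreated Rb null and 6628.1, 6211.4 and 6328.5 in untreated wildtype cells. By these probe sets the highest fitted difference of Ncl was 0.30 ± 0.0487, adjusted p = 2.87e-04 and that of Npm1 was 0.27 ± 0.0483, adjusted p = 5.30e-04, both between untreated Rb null and untreated wildtype cells. A much dimmer probe set of Ncl, with means of 203.5 in untreated Rb null and 110.5 in untreated wildtype cells, was called higher there (0.82), and its other 2 probe sets were not called in any comparison. The helicase gene Ddx21 had responses of 0.45 in Rb null and 0.50 in wildtype cells and was not called. Its other probe set gave -0.23 in Rb null and 0.09 in wildtype cells, also not called.

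In the box C/D snoRNP, which methylates ribosomal RNA, the scaffold gene Nop58 was called higher in Rb null cells with and without cisplatin. Nop56, also a scaffold gene, was called higher there after cisplatin by its chosen probe set. The methyltransferase gene Fbl was not called by its brighter probe set, one with the suffix _s_at. Nop58 averaged 1079.8 ± 169.5 in cisplatin-treated Rb null cells, against 680.1 ± 50.55 in cisplatin-treated wildtype cells (0.65 ± 0.121, adjusted p = 4.63e-04). In untreated cells it averaged 726.8 ± 71.54 in Rb null, against 479.1 ± 56.61 in wildtype (0.59 ± 0.121, adjusted p = 0.00162). The untreated call of Nop58 was lost under quantile normalization, median centring and a pseudocount of 45.8, and without untreated Rb null replicate 3 or untreated wildtype replicate 2 or 3, at log2 values down to 0.51. The call after cisplatin was lost without cisplatin-treated Rb null replicate b (0.57). Nop56 averaged 2477.3 ± 67.05 in cisplatin-treated Rb null cells, against 1610.0 ± 45.76 in cisplatin-treated wildtype cells (0.62 ± 0.0626, adjusted p = 1.95e-06). Its untreated means were 1681.0 ± 47.71 in Rb null and 1233.5 ± 71.88 in wildtype cells, a difference under 1.5-fold (0.44). The other probe set of Nop56 averaged 2225.6 in cisplatin-treated Rb null and 1675.4 in cisplatin-treated wildtype cells, a difference that was not called (0.41). It was called higher with cisplatin in Rb null cells (0.59). Fbl, fibrillarin, gave 2319.8, 2479.1 and 2305.9 in cisplatin-treated Rb null, 2259.8, 2557.3 and 2609.2 in cisplatin-treated wildtype, 1990.3, 2765.9 and 2492.8 in untreated Rb null and 2197.9, 2039 and 1747.2 in untreated wildtype cells. Its other probe set averaged 1632.5 in cisplatin-treated Rb null, 1776.1 in cisplatin-treated wildtype, 2113.8 in untreated Rb null and 1500.6 in untreated wildtype cells. The difference of its responses was called negative by that probe set (-0.61, adjusted p = 4.66e-04), against -0.33 by the brighter one. Rrp9, which binds the U3 snoRNA, gave 702.8, 839.1 and 908.5 in cisplatin-treated Rb null and 222.7, 663.7 and 724.4 in cisplatin-treated wildtype cells. In Rrp9 1 wildtype array lay far below the other 2, and neither its genotype difference (0.76 ± 0.322, adjusted p = 0.0634) nor the difference of its responses (1.03 ± 0.456, adjusted p = 0.0922) was called.

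Gar1, a core protein of the box H/ACA snoRNP, which converts uridine to pseudouridine, was the only one of the 38 members called in all 4 comparisons between groups. It gave 1964.9, 2014.2 and 1982.4 in cisplatin-treated Rb null and 1249.2, 1115.8 and 1247.6 in cisplatin-treated wildtype cells. In untreated cells it gave 980.6, 992.8 and 1056.8 in Rb null and 465.6, 735.3 and 718.9 in wildtype cells, so no 2 groups overlapped. Rb null cells were higher by 0.72 ± 0.131, adjusted p = 3.69e-04 after cisplatin and by 0.68 ± 0.131, adjusted p = 0.00102 without it. The untreated call was lost without untreated wildtype replicate 1, where log2 went down to 0.47. The only probe set of Gar1 has the suffix _s_at, so its calls could not be tried without such probe sets. With cisplatin Gar1 was higher by 0.97 ± 0.131, adjusted p = 1.34e-05 in Rb null and by 0.93 ± 0.131, adjusted p = 2.98e-05 in wildtype cells, and the difference of the responses was 0.04 ± 0.185, adjusted p = 0.882. Of its partners, Nop10 rose with cisplatin in Rb null cells (5771.8 ± 109.5 treated, 3396.7 ± 120.9 untreated; 0.76 ± 0.0601, adjusted p = 4.74e-08). The dimmer probe set of Nop10 gave 0.56 there, which was not called. Nhp2 was not called, with responses of 0.45 in Rb null and 0.40 in wildtype cells.

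**Figure D4:**
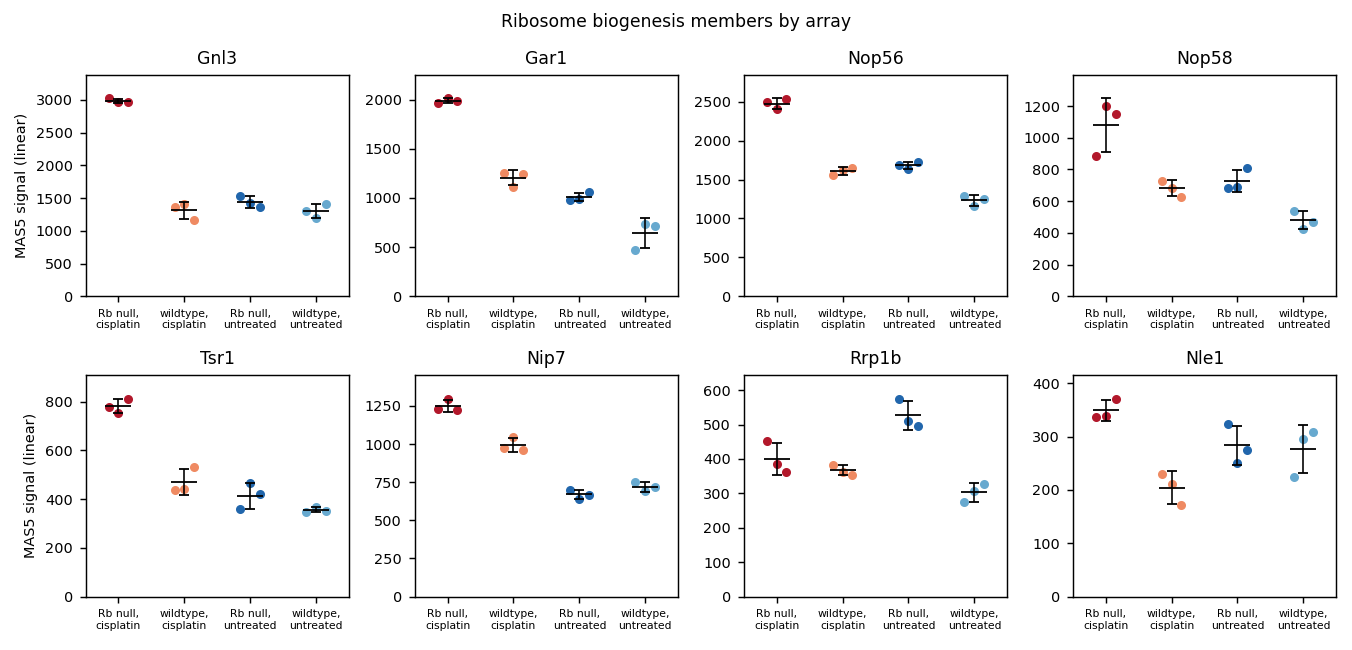
MAS5 signal (linear scale) of 8 ribosome biogenesis members on each array; points are arrays and bars the mean ± SD of 3. The groups of Gar1 form 4 separate steps, Gnl3 is high in cisplatin-treated Rb null cells alone, and Rrp1b is highest in untreated Rb null cells.

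Of the 7 members of small subunit assembly, Tsr1 and Noc4l were called. Tsr1, a GTPase-like factor of late small subunit maturation with both motifs in its promoter, gave 777, 754.7 and 813 in cisplatin-treated Rb null and 438.7, 443.5 and 534 in cisplatin-treated wildtype cells. Without cisplatin it gave 357.7, 465.2 and 419.1 in Rb null and 347.6, 367.6 and 353.1 in wildtype cells. It rose with cisplatin in Rb null cells (0.91 ± 0.104, adjusted p = 2.59e-06) and was higher there than in treated wildtype cells (0.72 ± 0.104, adjusted p = 5.28e-05), while the difference of the responses was not called (0.52 ± 0.147, adjusted p = 0.0131). The only probe set of Tsr1 also has the suffix _s_at, so its calls could not be tried without such probe sets. Noc4l, a factor of the processome, gave 853.6, 817.8 and 924.2 in cisplatin-treated Rb null and 548.9, 546.7 and 593.7 in cisplatin-treated wildtype cells. Its untreated signals were 622.5, 468.4 and 617.1 in Rb null and 457.1, 742.3 and 567.8 in wildtype cells. The 3 calls of Noc4l (Rb null response 0.60, genotype difference after cisplatin 0.61, difference of responses 0.64 ± 0.208, adjusted p = 0.0251) lie close to 1.5-fold, came from 1 of its 3 probe sets, and were each lost without cisplatin-treated Rb null replicate c. The Rb null response was also lost without untreated Rb null replicate 2, and the difference of responses without untreated Rb null replicate 2, untreated wildtype replicate 2 or cisplatin-treated wildtype replicate b. In the other 2 probe sets the difference of responses was -0.22 and 0.11. A pseudocount of 45.8 ended the response and genotype calls. The lowest log2 values of these calls over all alternatives were 0.47, 0.56 and 0.46. The processome genes Wdr75 and Utp18 and the late factors Bysl and Ltv1 were not called. Wdr75 averaged 538.5 ± 72.45 in cisplatin-treated Rb null, 756.6 ± 152.2 in cisplatin-treated wildtype, 670.7 ± 74.17 in untreated Rb null and 659.0 ± 68.29 in untreated wildtype cells. The responses of Utp18 (0.37 in Rb null, 0.45 in wildtype) had 1 sign, while those of Bysl (-0.20 in Rb null, 0.23 in wildtype) and Ltv1 (-0.15 in Rb null, 0.07 in wildtype) had opposite signs. Wdr43 was not called by its brighter probe set (responses of 0.17 in Rb null and 0.06 in wildtype cells), but its other probe set gave 476.3 in cisplatin-treated Rb null cells, against 866.0 in untreated Rb null cells, and was called lower there (-0.87).

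In large subunit assembly, Nip7 and Noc3l rose with cisplatin in Rb null cells, Noc2l and Noc3l rose in wildtype cells, and Nle1, Rrp1b and Rrs1 differed by genotype. Noc2l, which works with Noc3l in nucleolar pre-60S transport, gave 426, 447.3 and 421 in cisplatin-treated wildtype cells, against 319, 266.9 and 214.7 in untreated wildtype cells (0.69 ± 0.118, adjusted p = 1.80e-04). That call was lost without untreated wildtype replicate 3, at a log2 value down to 0.55, and the Rb null response of Noc2l was 0.47 and not called. Noc3l averaged 659.0 ± 48.69 in cisplatin-treated Rb null and 667.4 ± 13.86 in cisplatin-treated wildtype cells. Its untreated means were 429.6 ± 42.37 in Rb null and 423.2 ± 27.1 in wildtype cells (response 0.61 in Rb null, a call lost without untreated Rb null replicate 3 or cisplatin-treated Rb null replicate a or with a pseudocount of 45.8, at values down to 0.54, and 0.65 in wildtype). Nip7, a factor of pre-rRNA processing, averaged 1250.6 ± 41.35 in cisplatin-treated Rb null cells, against 669.4 ± 29.87 in untreated Rb null cells (0.89 ± 0.0709, adjusted p = 5.28e-08).

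Nle1 (Notchless), which acts on the pre-60S particle together with the ATPase Mdn1, gave 337.3, 339.5 and 371.5 in cisplatin-treated Rb null cells, against 230.4, 211.9 and 171.2 in cisplatin-treated wildtype cells (0.75 ± 0.142, adjusted p = 5.10e-04). Untreated cells gave 324, 250.9 and 275.6 in Rb null and 224.9, 295.8 and 308.1 in wildtype. The response was 0.30 in Rb null and -0.41 in wildtype cells, neither called, and the difference was 0.71 ± 0.201, adjusted p = 0.0125. Rrp1b, a nucleolar protein, gave 575.5, 509.6 and 497 in untreated Rb null cells, against 273.9, 308.2 and 327.3 in untreated wildtype cells (0.78 ± 0.105, adjusted p = 4.59e-05). With cisplatin it gave 453.4, 384.1 and 361.9 in Rb null and 383.1, 362.9 and 354.7 in wildtype cells, and the difference of the responses was -0.66 ± 0.148, adjusted p = 0.00289, which fell just short of 1.5-fold under quantile normalization and median centring (nearest to 0 at -0.56). Its 2 other probe sets gave untreated genotype differences of 0.40 and 0.35 that were not called. Their differences of the responses were -0.23 and -0.31, also not called. Rrs1, which helps load the 5S particle, gave 1496.5, 1543 and 1448 in untreated Rb null cells, against 747.3, 1125 and 1106.7 in untreated wildtype cells (0.61 ± 0.126, adjusted p = 0.00179), a call lost under median centring and without untreated wildtype replicate 1, at values down to 0.42. The PeBoW complex (Pes1, Bop1 and Wdr12), which large subunit processing needs, was not called in any comparison, and neither were Nop2, Nop16 and Ebna1bp2. Pes1 averaged 684.8 ± 33.25 in cisplatin-treated Rb null, 726.0 ± 16.66 in cisplatin-treated wildtype, 543.6 ± 18.79 in untreated Rb null and 489.7 ± 43.47 in untreated wildtype cells, and its wildtype response was just under 1.5-fold (0.56 ± 0.0814, adjusted p = 3.95e-05). Bop1 averaged 1051.4 ± 45.12 in cisplatin-treated Rb null, 1329.5 ± 38.87 in cisplatin-treated wildtype, 1236.8 ± 12.29 in untreated Rb null and 1275.7 ± 76.56 in untreated wildtype cells. The response of Wdr12 was 0.28 in Rb null and 0.17 in wildtype cells. That of the rRNA methyltransferase gene Nop2 was 0.52 in Rb null and 0.17 in wildtype cells, and that of Nop16 was 0.42 in Rb null and 0.55 in wildtype cells. Ebna1bp2 had responses of -0.06 in Rb null and -0.08 in wildtype cells.

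Over all roles, 19 of the 38 members were called in at least 1 comparison and 19 in none, against 54.1% of all genes called at least once. The members without a call spanned log2 values of -0.47 to 0.76 between cisplatin-treated Rb null and cisplatin-treated wildtype cells, and -0.27 to 0.45 between untreated Rb null and untreated wildtype cells. Their cisplatin responses spanned -0.31 to 0.55 in Rb null and -0.48 to 0.56 in wildtype cells. The highest value after cisplatin belongs to Rrp9, whose arrays scatter as described.

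The 3 control probe sets for 18S rRNA, the product of polymerase I itself, were higher with cisplatin in Rb null cells, and the 3′ and 5′ ones also in wildtype cells. The 3′ probe set gave 282.4, 404.8 and 461.8 in cisplatin-treated Rb null cells, 245.4, 188 and 207.2 in cisplatin-treated wildtype cells, 121.9, 101.9 and 107.1 in untreated Rb null cells and 104.3, 92 and 120.8 in untreated wildtype cells. Every treated array lay above every untreated one, and the treated Rb null arrays above the treated wildtype ones. The log2 response was 1.68 ± 0.175 in Rb null (adjusted p = 9.45e-07) and 0.95 ± 0.175 in wildtype cells (adjusted p = 3.46e-04), and the difference of the responses was 0.73 ± 0.247 (adjusted p = 0.0308). The 5′ probe set averaged 161.0 ± 25.58 in cisplatin-treated Rb null, 51.9 ± 5.667 in cisplatin-treated wildtype, 16.8 ± 11.05 in untreated Rb null and 14.4 ± 3.637 in untreated wildtype cells (SD, n = 3 each). The middle probe set averaged 126.9 ± 18.37 in cisplatin-treated Rb null, 49.3 ± 26.39 in cisplatin-treated wildtype, 14.7 ± 10.53 in untreated Rb null and 23.53 ± 5.74 in untreated wildtype cells. Its wildtype response of 0.71 was not called (adjusted p = 0.15), and the differences of the responses were 1.40 for the 5′ and 1.81 for the middle probe set (adjusted p = 0.0326 and 0.0214). The untreated 5′ and middle signals, 5.2 on the lowest array, are close to the added 10.4, so their log2 values depend on it. With 1 and with 45.8 added, alternatives tried after seeing the data, the difference of responses was 1.63 and 1.03 for the 5′ and 2.34 and 1.10 for the middle probe set. The 5′ call was lost with 1 added (adjusted p = 0.0947). For the 3′ probe set these differences were 0.75 and 0.66, both called. The calls also depended on single arrays. The 3′ call was lost without untreated Rb null replicate 2 or 3, untreated wildtype replicate 3, cisplatin-treated Rb null replicate b or c, or cisplatin-treated wildtype replicate b or c, where the value went down to 0.59. The 5′ call was lost without untreated Rb null replicate 2, untreated wildtype replicate 1, cisplatin-treated Rb null replicate b or c, or cisplatin-treated wildtype replicate b or c (down to 1.05), and the middle call without cisplatin-treated Rb null replicate c (1.70). The middle probe set's genotype difference after cisplatin, 1.31, lost its call without cisplatin-treated Rb null replicate c or cisplatin-treated wildtype replicate b (0.88), and its wildtype response was called without cisplatin-treated wildtype replicate b (1.14). Between untreated Rb null and untreated wildtype cells none of the 3 was called, with log2 values of 0.06, 0.05 and -0.50 for the 3′, 5′ and middle probe sets. In the usual Affymetrix protocol the label is primed on poly(A) tails, so these control signals do not measure the rRNA content of the cells.

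**Figure D5:**
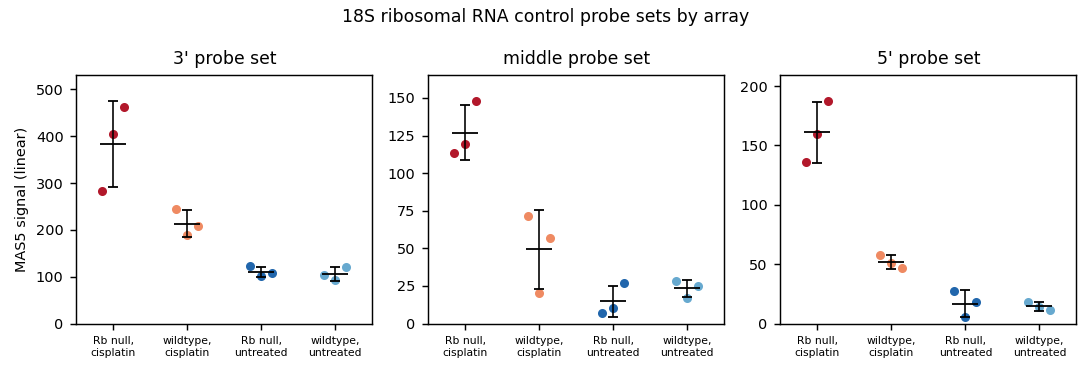
MAS5 signal (linear scale) of the 3 control probe sets for 18S rRNA on each array; points are arrays and bars the mean ± SD of 3. All 3 are highest in cisplatin-treated Rb null cells, and the 3′ probe set separates every treated from every untreated array.

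Other genes of the same pathway, from lists that do not hold the members, gave the following counts, to be read beside the shares of all genes called higher and lower, 16.6% and 20.3% for cisplatin in Rb null cells and 14.8% and 12.7% in wildtype cells. Of 13 other polymerase I genes tested, 3 were higher (23.1%) and 1 lower (7.69%) with cisplatin in Rb null cells, and 3 were higher (23.1%) and 0 lower in wildtype cells. Polr2h, a subunit that all 3 nuclear polymerases share, rose in both (1.08 in Rb null, 0.73 in wildtype), and Taf1b, of the promoter selectivity factor, fell in Rb null cells (-0.69). Of 33 other small subunit genes, 11 were higher (33.3%) and 3 lower (9.09%) with cisplatin in Rb null cells, and 6 were higher (18.2%) and 0 lower in wildtype cells. The kinase gene Riok2 rose by 1.78 and Rrp36 by 1.59 in Rb null cells, where Ddx49 (-0.93), Rrp12 (-0.92) and Heatr1 (-0.71) fell. Of 35 other large subunit genes, 10 were higher (28.6%) and 3 lower (8.57%) in Rb null cells, and 10 were higher (28.6%) and 1 lower (2.86%) in wildtype cells. Brix1 (1.35 in Rb null, 0.88 in wildtype) and Nop53 (1.06 in Rb null, 1.02 in wildtype) rose, and the very large ATPase gene Mdn1 fell in both (-1.04 in Rb null, -1.11 in wildtype).

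Of 16 genes of the exosome and RNase MRP, which trim and cleave pre-rRNA, 4 were higher and 0 lower in Rb null cells and 3 were higher (18.8%) and 0 lower in wildtype cells. Exosc9 rose by 1.54 in Rb null and by 2.37 in wildtype cells, and Pop4 by 1.40 in Rb null and by 1.83 in wildtype cells. Of 12 RNA polymerase III genes, 4 were higher (33.3%) and 2 lower (16.7%) with cisplatin in Rb null cells and 1 was higher (8.33%) and 0 lower in wildtype cells. Between untreated Rb null and untreated wildtype cells, the 6 lists gave 0 lower calls, and higher calls for 0 of the other polymerase I genes, 2 of the other small subunit genes (Utp3 and Utp20), 0 of the other large subunit genes, 2 of the exosome and RNase MRP genes (Dis3 and Exosc2) and 1 of the polymerase III genes (Polr3f), beside 8.07% higher and 5.08% lower among all genes. After cisplatin, where all genes gave 9.67% higher and 13.3% lower, Rb null against wildtype cells gave 2 higher and 1 lower call among the other polymerase I genes, 6 and 3 among the other small subunit genes, 2 and 0 among the other large subunit genes, 3 and 1 among the exosome and RNase MRP genes, and 4 and 1 among the polymerase III genes. Of 7 genes of the MYC network 0 were called between untreated Rb null and untreated wildtype cells. Mlx, a partner of MYC-related factors, was lower in cisplatin-treated Rb null than in cisplatin-treated wildtype cells (-0.73), fell with cisplatin in Rb null cells (-0.79) and had a negative difference of responses (-0.87). Mxd3 rose with cisplatin in wildtype cells (0.60), and these are all calls of that list. Myc itself averaged 1562.7 ± 38.55 in cisplatin-treated Rb null, 1317.2 ± 108.1 in cisplatin-treated wildtype, 1106.9 ± 47.62 in untreated Rb null and 1042.7 ± 120.1 in untreated wildtype cells. Its responses of 0.49 ± 0.0863, adjusted p = 1.55e-04 in Rb null and 0.34 ± 0.0863, adjusted p = 0.00418 in wildtype cells were under 1.5-fold.

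The members span 1.0 kb (Nop10) to 70.4 kb (Polr1a) of genome in the RefSeq annotation (GRCm38.p6), with a median of 12.95 kb. Across the 38 members the Spearman correlation of span with the cisplatin response was -0.41 in Rb null cells and 0.03 in wildtype cells, while across 7939 genes it was -0.41 and -0.31. With the genotype difference it was -0.53 after cisplatin and -0.08 without the drug (-0.23 and 0.01 across all genes). These are descriptions of the same fitted values, and Polr1a is both the longest member and the one that fell in Rb null cells.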

How the data were processed

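RNA was measured on 12 Affymetrix mouse arrays, 3 per group, from 6 µg of total RNA each, per the labels' protocols. Each deposited value is the intensity MAS5 gave a probe set, per the submitters' processing notes; its version, scaling target and detection calls are not given in the sources used here. The mean intensity of each deposited array, with 2% trimmed at each end, was the same, so the authors' scaling was kept. The number of arrays limits the precision, and the background level of a probe set is unknown. Of 22690 probe sets, 64 controls and the 40% with the lowest mean were left out, and 13575 were tested in 1 fit of all 4 groups with limma 3.58.1 (R 4.3.3), with log2 of the intensity plus 10.4 (the 10th percentile), a trended variance prior and two-sided tests. The 18S controls were added to the fit for their own values. Adding 10.4 understates the change of weak genes. For each of 7945 genes, 1 probe set stands, the brightest without a cross-hybridization suffix, where _s_at was not counted as such a suffix. The platform annotation gave 1 gene for 20380 probe sets, several for 691 and no entry for 1555. p-values were adjusted over all 13575 probe sets tested (Benjamini-Hochberg). The 5 contrasts were each genotype difference, each cisplatin response and the difference of the responses. The fit was tested on simulated data. The members and lists were chosen with earlier results of these data known. Genes were named with array values by a rule: the 4 largest called rises and falls per contrast, the called differences of the responses, the polymerase I members, Ncl, Npm1 and Fbl. Alternatives were other pseudocounts, filters, scalings, fold minimums and probe sets, a replicate block, and each array left out; leaving out the whole untreated wildtype group, and other pseudocounts for 18S, were added after seeing the data.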

Additional observations from a re-analysis of the deposited data

Results flagged for a closer look

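In limma's test of the difference itself, 6 members, by their chosen probe sets, and the 18S control probe sets passed the threshold. The test compares the cisplatin response of Rb null cells with that of wildtype cells (Rb null response minus wildtype response, log2). The difference was 1.04 for Gnl3, 0.71 for Nle1, 0.64 for Noc4l, -0.60 for Polr1a, -1.04 for Polr1b and -0.66 for Rrp1b. For the 18S probe sets it was 0.73 (3′), 1.40 (5′) and 1.81 (middle). The untreated 5′ and middle signals lie close to the 10.4 added before taking logs, so the sizes of these differences are uncertain. The 5′ call is lost with 1 added, and each of the 3 calls is lost without 1 or more single arrays. Each of these differences uses the untreated wildtype arrays, which differ from the other 9 arrays in sex-linked transcripts, and the part of that in these values was not tested.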

How the results depend on the processing

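None of the 36 calls of members reversed under any alternative run, and 23 held under all in which the gene was tested, other than the 2-fold minimum. With no fold minimum the counts of members called higher were 12 between untreated Rb null and untreated wildtype cells, 17 between cisplatin-treated Rb null and cisplatin-treated wildtype cells, 22 for cisplatin in Rb null, 24 for cisplatin in wildtype cells and 7 for the difference of the responses, and those called lower were 5 after cisplatin, 4 for cisplatin in Rb null, 1 in wildtype and 6 for the difference. With a 2-fold minimum the higher counts were 0, 1, 2, 1 and 1 in the same order, and the lower counts 0 between the cisplatin-treated groups, 0 for cisplatin in Rb null and 1 for the difference. The share of all genes was not counted at a 2-fold minimum, for any probe set of a gene or with 1 array left out. Member counts of those runs therefore cannot be set against all genes. The shares without a minimum are given with each comparison above. Median centring gave 3 higher between untreated Rb null and untreated wildtype cells and 16 higher for cisplatin in Rb null cells, where it moved the median of all genes to 0.13, against -0.02 as deposited, and the share of higher calls to 58.0%, against 44.9%. Among all genes it called 594 higher between the untreated groups, against 641 as deposited. For cisplatin in Rb null cells it called 1771 genes higher, against 1317 as deposited. Median centring and quantile normalization each left 1 member with a negative difference of responses, with 51.3% and 46.0% of all calls positive, against 36.7% as deposited, and the members' median difference turned to 0.06 under median centring. Among all genes these scalings gave 907 and 979 negative calls, against 1194 as deposited. Counting any probe set of a gene gave 2 lower for cisplatin in Rb null cells and 5 negative differences. In the 250 bases before the start alone, CACGTG was in 3 members. Leaving out 1 array at a time gave 3 to 5 higher and 0 lower calls between untreated groups, 6 to 8 and 1 to 2 between cisplatin-treated groups, 9 to 10 and 1 to 2 for cisplatin in Rb null, 6 to 8 and 0 for cisplatin in wildtype, and 2 to 5 positive and 2 to 4 negative differences. The count of 3 between untreated groups came without untreated wildtype replicate 1 or 3, the 2 lower calls without cisplatin-treated wildtype replicate c (between the cisplatin-treated groups) or cisplatin-treated Rb null replicate b (cisplatin in Rb null), and the 5 positive differences without cisplatin-treated wildtype replicate c. With a pseudocount of 1 the 5′ 18S difference of responses was 1.63 and no longer called. Without single arrays the 18S difference of responses ranged over 0.59 to 0.93 (3′), 1.05 to 1.68 (5′) and 1.38 to 2.13 (middle). The middle 18S probe set ranged over 0.88 to 1.60 between cisplatin-treated Rb null and cisplatin-treated wildtype cells, and over 0.43 to 1.14 for cisplatin in wildtype cells. Leaving out the whole untreated wildtype group kept 19 of 19 calls that do not use it. That run cannot change the log2 values of these calls, only the estimate of the spread and the adjustment, so little could be lost. With the replicate number as a block the counts were 10 higher and 1 lower for cisplatin in Rb null cells and no call was lost or moved in the other comparisons; same-numbered arrays deviated together only at r of -0.19 to 0.11, so the numbers do not pair the arrays. Without detection calls, a weak signal could not be told from background.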
